A study of Mus musculus with 6 samples.

Results

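The 10 genes described here encode receptors that recognise microbial products or misplaced nucleic acids, together with the adaptor and the transcription factors that pass their signal on. They were taken by symbol from a table of 30055 genes. The RIG-I-like receptors are Ddx58, Ifih1 and Dhx58, the Toll-like receptors are Tlr2, Tlr3, Tlr4 and Tlr13, Mavs is an adaptor, and Irf3 and Irf7 are interferon regulatory factors. All 10 passed the filter on low counts and belong to the 15035 genes tested.

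Expression was measured by RNA sequencing in cultured lung endothelial cells isolated from 3-week-old C57BL6 mice that lack Ch25h, the gene of cholesterol 25-hydroxylase, and that were labelled female. Cells of the TEV plus reserpine group received reserpine, a blocker of vesicular monoamine transport, at 10 µM for 8 h and then tumour-derived extracellular vesicles (TEV) of the MC38 mouse colorectal cancer line at 20 µg/ml for 12 h. Cells of the TEV group received the same vesicles without the drug, and cells of the vehicle group received neither (PBS, per the series text). Each group held 2 libraries. Every group, vehicle included, carries the Ch25h deletion, and no library of cells given only reserpine is among those analysed, and the drug's own effect and its influence on the vesicle response cannot be told apart.

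Sensing of RNA inside the cell begins with RIG-I (Ddx58) and MDA5 (Ifih1), helicases that bind foreign or unprocessed RNA and then engage MAVS on the mitochondrial surface. LGP2 (Dhx58), the third of the family, lacks the signalling domains of its relatives and modulates them. MAVS activates the kinases TBK1 and IKK-epsilon, which phosphorylate IRF3 and IRF7 and so switch on type I interferon genes. Toll-like receptors sit on the cell surface (TLR2 for bacterial lipoproteins, TLR4 for lipopolysaccharide) or in endosomes (TLR3 for duplex RNA, TLR13 for bacterial ribosomal RNA in the mouse). Interferon in turn raises Ddx58, Ifih1, Dhx58 and Irf7, which closes a feedback loop, and TLR4 is a well-known lipopolysaccharide receptor of endothelium.

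The sequences just upstream of 4 genes are shown. All 4 genes rose against vehicle in both vesicle groups, as described below. Between the vesicle groups they differed: Irf7 was higher in TEV plus reserpine cells, Tlr13 was higher in TEV cells, and Ddx58 and Ifih1 were not called. The sequences are RefSeq promoter sequences of the GRCm38.p6 assembly, given in the gene's own direction from 5′ to 3′ and ending at or before the RefSeq start. Of the 10 genes, 8 matched that table, and Dhx58 and Tlr4 did not, so nothing is said of their motifs. Capitals mark a pair of GAAA repeats on either strand, separated by 1 base in Ddx58 and by 3 bases in Ifih1. Neither spacing is that of the classical interferon-stimulated response core, whose GAAA half-sites are separated by 2 bases.
Ddx58, chr4:40239829-40240075, minus strand: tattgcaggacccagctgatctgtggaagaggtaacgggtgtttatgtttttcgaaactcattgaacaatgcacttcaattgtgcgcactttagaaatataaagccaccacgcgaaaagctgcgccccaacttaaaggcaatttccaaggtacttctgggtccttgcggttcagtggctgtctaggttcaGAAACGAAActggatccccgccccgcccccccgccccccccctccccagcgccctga
Ifih1, chr2:62646256-62646505, minus strand: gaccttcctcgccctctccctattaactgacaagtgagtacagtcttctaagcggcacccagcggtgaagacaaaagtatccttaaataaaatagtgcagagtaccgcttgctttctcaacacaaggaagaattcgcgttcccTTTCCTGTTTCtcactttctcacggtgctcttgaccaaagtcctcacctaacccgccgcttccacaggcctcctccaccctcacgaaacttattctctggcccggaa
Irf7, chr7:141266482-141266674, minus strand: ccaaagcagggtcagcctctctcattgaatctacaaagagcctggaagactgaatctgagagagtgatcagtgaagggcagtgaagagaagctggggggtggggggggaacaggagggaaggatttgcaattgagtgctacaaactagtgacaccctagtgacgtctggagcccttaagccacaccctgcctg
Tlr13, chrX:106143025-106143203, plus strand: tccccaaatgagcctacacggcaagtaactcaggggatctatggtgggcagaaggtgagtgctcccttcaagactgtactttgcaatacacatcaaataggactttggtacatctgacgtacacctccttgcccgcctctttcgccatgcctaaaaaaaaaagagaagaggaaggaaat
Motifs were searched on both strands in the 250 bases upstream of each start. The classical interferon-stimulated response core, a pair of GAAA half-sites separated by 2 bases, was found in 0 of the 8 genes, against 2.98% of 32851 promoters. The pair separated by 1 base, GAAANGAAA, was found in Ddx58 (GAAACGAAA, 60 to 52 bases before the start) and in 2.68% of promoters. The pair separated by 3 bases was found in Ifih1 as its reverse complement TTTCCTGTTTC, 107 to 97 bases before the start, and in 2.38% of promoters. These last spacings were chosen after the sequences had been read. The STAT motif TTCNNNGAA was found in 0 of the 8 genes and in 7.02% of promoters. A narrow form of the NF-kB motif, GGG and TTTCC separated by 2 bases, was found in 1 of the 8 genes, Tlr3, as GGGAGTTTCC at 211 to 202 bases before the start, and in 1.41% of promoters. Other forms were not searched. No match overlapped another. A match describes the letters of this window and is not a binding site.

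Depth ranged from 22270657 to 81225627 estimated counts a library, and 3 counts made 0.0369 to 0.135 CPM (counts divided by the library total and scaled to a common size). Ch25h itself kept between 9.09 and 40.8 estimated counts in every library, and the extent of the deletion is not stated, so these reads check nothing. Sums of marker genes are in CPM by library total, without the TMM scaling (trimmed mean of M values, edgeR) that the values of single genes carry. Markers of endothelium (10 genes, Pecam1 and Cdh5 among them) summed to between 9350 and 9490 CPM in TEV plus reserpine cells, to 9290 in both TEV libraries, and to between 4850 and 4870 in vehicle cells. In TEV cells against vehicle, 6 of the 10 were higher, among them Emcn (log2 fold change 2.84) and Eng (1.96), and 4 were lower, namely Vwf (-3.02), Cldn5 (-2.93), Kdr (-1.92) and Tek (-0.31, a call lost without replicate 1 or 2 of vehicle or TEV replicate 1). Fibroblast markers (9 genes) summed to between 80.6 and 98.0 CPM in TEV plus reserpine cells, 52.1 to 62.9 in TEV cells and 2970 to 3400 in vehicle cells, with Lum and Dpt at 0 in both TEV plus reserpine libraries. Pericyte and smooth muscle markers (7 genes) summed to 827 to 901, 722 to 844 and 2040 to 2050 CPM in the same order, with Cspg4 at 0 in both vesicle groups. Markers of epithelium and mesothelium (8 genes) stayed at or below 46.2 CPM in every library. Of 5 tested in TEV cells against vehicle, Krt18 was higher (2.48) and Upk3b (-3.79), Krt8 (-2.18, a call lost without vehicle replicate 2 or TEV replicate 2) and Msln were lower, the last at 0 in both TEV libraries and at 2.39 and 1.64 CPM in vehicle cells. The part of these differences in the comparisons with vehicle was not tested. In bulk samples, fewer cells of a type and less RNA per cell cannot be told apart. The labels do not say whether replicates came from separate cultures or animals, and p-values therefore measure only the spread between these libraries, which may be technical.

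With TEV, 8 of the 10 genes rose against vehicle and 0 fell, where 25.1% of all genes tested rose and 24.6% fell (edgeR quasi-likelihood test, Benjamini-Hochberg adjusted p under 0.05). Their median log2 change was 1.09, against 0.01 for all genes. With TEV plus reserpine, 6 of the 10 rose against vehicle and 0 fell, where 19.1% of all genes rose and 19.9% fell, and the median was 0.82 against -0.02 for all genes. Between TEV plus reserpine and TEV, Irf7 rose and Tlr13 fell, where 15.7% of all genes rose and 16.0% fell, and the median was -0.03 against 0.0004 for all genes. The comparisons share libraries and are not independent of each other. With 2 libraries a group, most genes showed groups without overlap. Of all 15035 genes tested, 6004 lay higher and 5861 lower without overlap in TEV against vehicle. The numbers were 5255 and 5380 in TEV plus reserpine against TEV, and 5325 and 5728 in TEV plus reserpine against vehicle. Groups without overlap, as described below, are therefore not particular to these 10 genes. Values in the following paragraphs are CPM with library sizes scaled by TMM, which corrects for differences in RNA composition, and changes are log2 changes from edgeR with standard errors (SE).

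**Figure D1:**
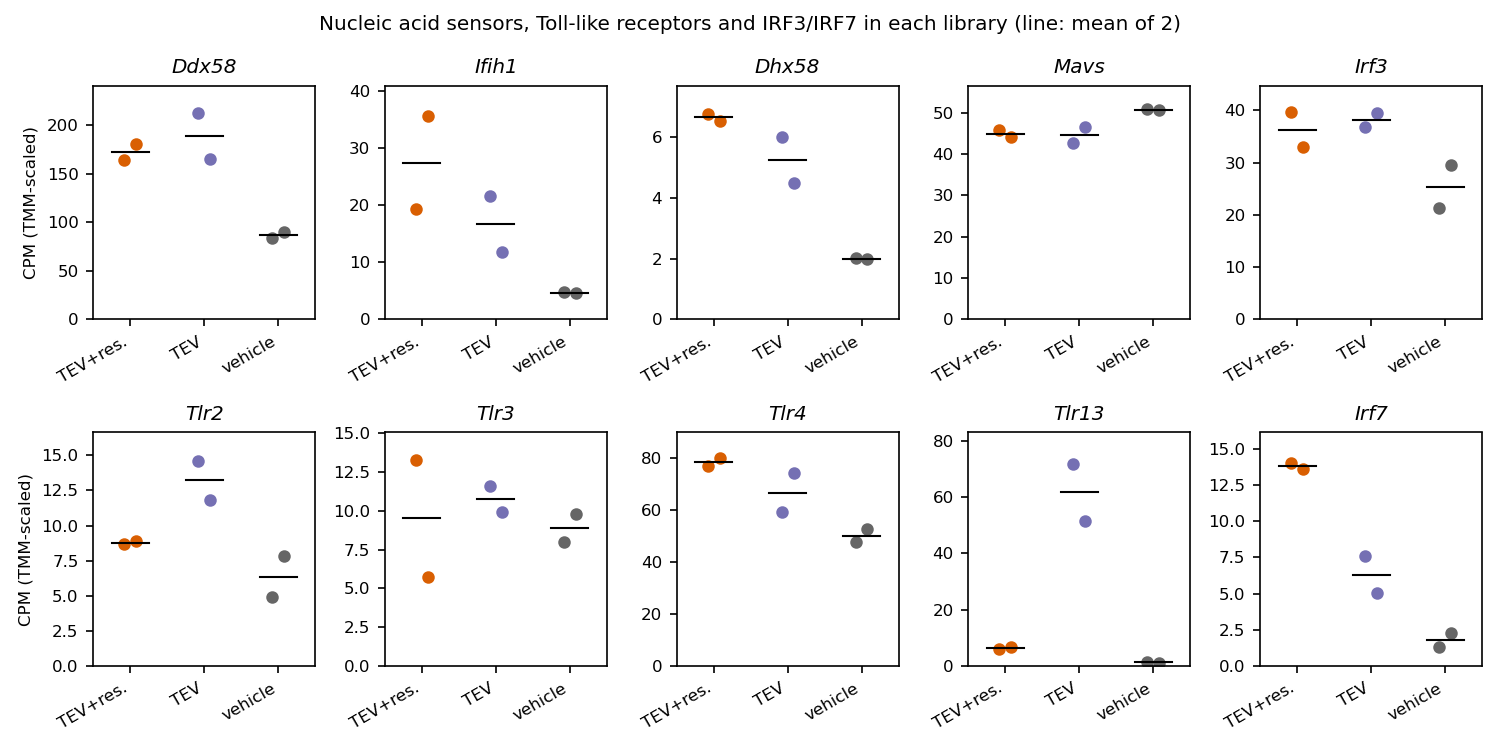
Expression of the 10 genes in each of the 6 libraries, in CPM with TMM-scaled library sizes on axes that start at 0, with the mean of the 2 libraries of a group as a line. Tlr13 stands at 71.9 and 51.6 CPM in TEV cells and below 7 CPM in all other libraries, whereas Mavs lies between 42.6 and 50.9 CPM throughout.

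Among the RIG-I-like receptors, Ddx58 was the most abundant. It stood at 164 and 181 CPM in TEV plus reserpine cells, at 212 and 165 CPM in TEV cells and at 84.0 and 90.1 CPM in vehicle cells. Both vesicle groups lay above vehicle and overlapped each other. The gene rose in TEV cells (log2 change 1.11, SE 0.131, edgeR adjusted p = 0.0006641) and in TEV plus reserpine cells (0.98, SE 0.131, edgeR adjusted p = 0.001697) against vehicle. Between TEV plus reserpine and TEV the change was -0.13, with a 95% interval of -0.44 to 0.18 (edgeR adjusted p = 0.4809).

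Ifih1, the gene of MDA5, stood at 19.3 and 35.6 CPM in TEV plus reserpine cells, at 21.6 and 11.8 CPM in TEV cells, and at 4.76 and 4.60 CPM in vehicle cells. The vehicle libraries lay close together and below all others, whereas the libraries within each vesicle group differed widely. Ifih1 rose by 1.82 in TEV cells (SE 0.378, edgeR adjusted p = 0.007115) and by 2.56 in TEV plus reserpine cells (SE 0.384, edgeR adjusted p = 0.002769), both against vehicle. The change between TEV plus reserpine and TEV, 0.73, had an interval of -0.11 to 1.58 and did not pass the test (edgeR adjusted p = 0.1587).

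Dhx58, the gene of LGP2, was the least abundant of the family in CPM. Its level was 6.74 and 6.55 CPM in TEV plus reserpine cells, 6.0 and 4.48 CPM in TEV cells, and 2.02 and 1.98 CPM in vehicle cells. The 3 groups did not overlap. Dhx58 rose in TEV cells (1.38, SE 0.221, edgeR adjusted p = 0.002438) and in TEV plus reserpine cells (1.73, SE 0.223, edgeR adjusted p = 0.001507) against vehicle, and changed by 0.35 between TEV plus reserpine and TEV (interval -0.16 to 0.85, edgeR adjusted p = 0.2491). Its antisense transcript Dhx58os shares 141 exonic bases with it, and since no source gives the libraries' strand, reads of that stretch are not told apart. The calls of the 3 receptor genes against vehicle held under all 15 alternative settings.

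Levels of different genes were compared per kilobase of exon, with every annotated exon base of a gene counted once, whatever transcript was expressed. Shares and close ranks depend on that choice of length. Ddx58 made up 82.1% ± 2.77 of the summed CPM per kilobase of the 3 receptors in TEV plus reserpine cells, 88.2% ± 1.56 in TEV cells and 91.2% ± 0.556 in vehicle cells (SD, n = 2 each). Ifih1 made up 11.1% ± 3.60, 6.58% ± 1.51 and 4.24% ± 0.274 in the same order. Ddx58 thus dominated the family in every library, and the share of Ifih1 was higher in each vesicle-treated library than in either vehicle library. These shares were not tested.

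Mavs, the adaptor shared by RIG-I and MDA5, varied little. It stood at 45.7 and 44.0 CPM in TEV plus reserpine cells, at 42.6 and 46.6 CPM in TEV cells and at 50.9 and 50.5 CPM in vehicle cells. Every vesicle-treated library lay below both vehicle libraries, by a small margin. The log2 change was -0.18 in TEV cells (interval -0.39 to 0.03, edgeR adjusted p = 0.1255) and -0.18 in TEV plus reserpine cells (interval -0.39 to 0.04, edgeR adjusted p = 0.1599) against vehicle, and 0.01 between TEV plus reserpine and TEV (interval -0.21 to 0.22). Scaling by library size alone, which moves the median of all genes to -0.11 in TEV against vehicle, gave -0.31 for Mavs and called it lower (edgeR adjusted p = 0.03129, range over alternatives 0.03129 to 0.4727).

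**Figure D2:**
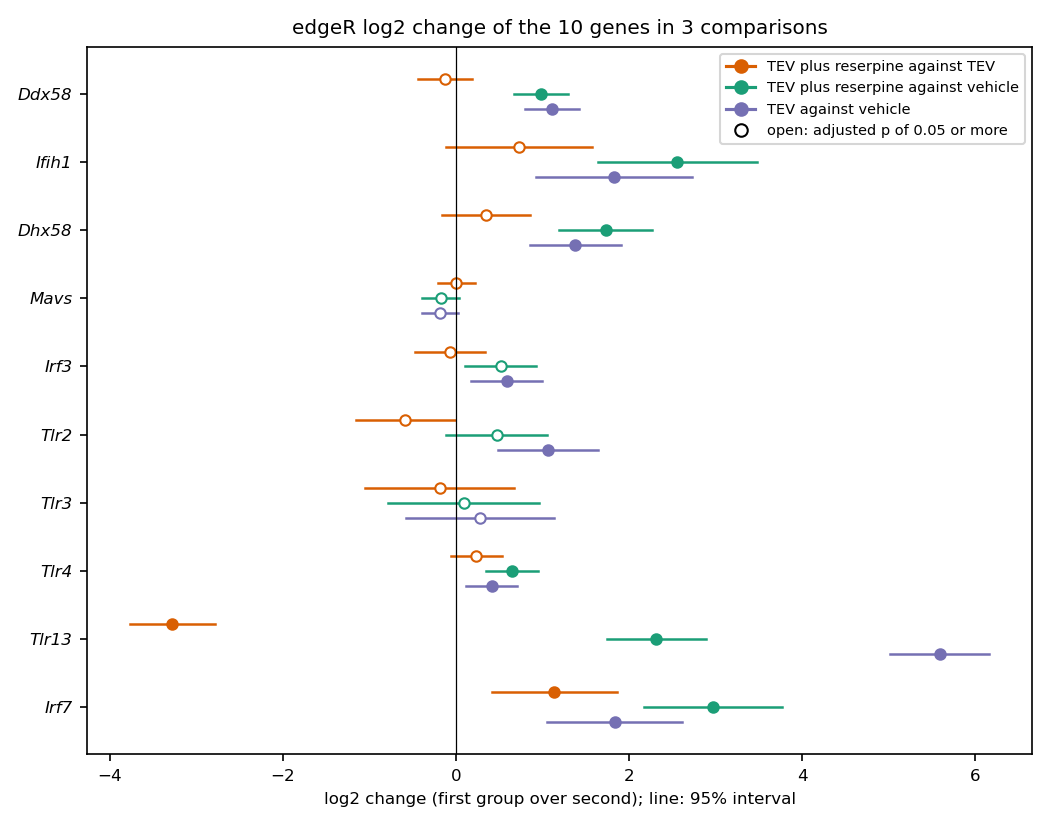
Log2 change of each gene in the 3 comparisons, from edgeR, with 95% intervals as lines and open circles where the adjusted p was 0.05 or more. Tlr13 is the gene whose 3 changes lie farthest apart, at -3.27 for TEV plus reserpine against TEV, 2.31 for TEV plus reserpine against vehicle and 5.59 for TEV against vehicle.

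Tlr13, the mouse endosomal receptor for bacterial ribosomal RNA, had the greatest change of the 10 genes. It stood at 5.99 and 6.72 CPM in TEV plus reserpine cells, at 71.9 and 51.6 CPM in TEV cells, and at 1.44 and 1.08 CPM in vehicle cells, the last from 61.7 and 31.3 estimated counts. The 3 groups lay far apart and did not overlap. Tlr13 was 48.0-fold higher in TEV cells than in vehicle cells (log2 change 5.59, SE 0.240, edgeR adjusted p = 1.355e-05), and 0.452% of the genes tested had a larger log2 change. With reserpine added it fell by 3.27 against TEV (SE 0.205, edgeR adjusted p = 0.0003689), to 0.103 times the TEV level. It remained 4.97-fold above vehicle in TEV plus reserpine cells (2.31, SE 0.240, edgeR adjusted p = 0.0005938). All 3 calls held under the 15 alternatives, with changes of 5.35 to 5.83, -3.48 to -3.03 and 2.14 to 2.56 in the order just given.

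Tlr13 is known from macrophages and dendritic cells, so the markers of those cells are given beside it. The 14 macrophage and leukocyte markers summed to 31.7 and 31.9 CPM in TEV plus reserpine cells, 23.3 and 23.7 CPM in TEV cells and 55.3 and 71.4 CPM in vehicle cells. These sums, like those of the other markers, are without TMM scaling. The difference between TEV and vehicle cells lay mostly in Lyz2, which averaged 4.01 CPM in TEV cells and 26.8 CPM in vehicle cells, and Cd14. Of 11 tested, 1 was higher (Cd68, a lysosomal glycoprotein, by 0.85, a call lost without vehicle replicate 2 or TEV replicate 2) and 5 were lower in TEV cells than in vehicle cells, while Csf1r (0.32) was not called and neither was Cx3cr1, at 0.833 and 0.942 CPM in TEV cells and 0.325 and 0.453 CPM in vehicle cells. Fcgr1, an antibody receptor of macrophages, was at 0 in both TEV plus reserpine libraries and below 0.12 CPM elsewhere. The 6 dendritic cell markers summed to 9.88 to 10.2 CPM in TEV plus reserpine cells, 4.36 to 6.37 CPM in TEV cells and 11.6 to 13.5 CPM in vehicle cells. Most of this sum was Zbtb46, which averaged 4.65 CPM in TEV cells and 10.9 CPM in vehicle cells. The part of these cells in the Tlr13 result was not tested.

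Tlr4, the lipopolysaccharide receptor, had the highest mean CPM of the Toll-like receptors in every group, with 66.6 CPM beside 61.8 CPM of Tlr13 in TEV cells. It stood at 76.8 and 79.9 CPM in TEV plus reserpine cells, 59.1 and 74.1 CPM in TEV cells and 47.6 and 52.6 CPM in vehicle cells. The groups followed each other without overlap. Tlr4 rose against vehicle in TEV plus reserpine cells (0.65, SE 0.125, edgeR adjusted p = 0.007564) and in TEV cells (0.41, SE 0.125, edgeR adjusted p = 0.03045). The call in TEV cells was lost in 7 alternatives, among them those without replicate 1 or 2 of vehicle (edgeR adjusted p = 0.156 and 0.0641), TEV replicate 2 (0.131), TEV plus reserpine replicate 1 (0.0517) or TEV plus reserpine replicate 2 (0.0505), in a range of 0.00895 to 0.156. The call in TEV plus reserpine cells was lost without vehicle replicate 1 (edgeR adjusted p = 0.0532, range 5.3e-05 to 0.0532). Between TEV plus reserpine and TEV the change was 0.23 (interval -0.06 to 0.53), and Tlr4 was called higher there without TEV replicate 2 (0.42, edgeR adjusted p = 0.0399, range over alternatives 0.0399 to 0.694).

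Tlr2, the receptor for bacterial lipoproteins, stood at 8.71 and 8.87 CPM in TEV plus reserpine cells, at 14.6 and 11.8 CPM in TEV cells, and at 4.90 and 7.83 CPM in vehicle cells. TEV libraries were the highest, and the 3 groups did not overlap. Tlr2 rose in TEV cells against vehicle (1.06, SE 0.242, edgeR adjusted p = 0.01061). This call held in all 15 alternatives, narrowly in the weakest of them, with changes of 0.75 to 1.43. The other changes did not pass the test: -0.59 in TEV plus reserpine against TEV (interval -1.16 to -0.01, edgeR adjusted p = 0.1063) and 0.47 in TEV plus reserpine against vehicle (interval -0.11 to 1.06, edgeR adjusted p = 0.1704). Tlr2 was called lower against TEV when only those groups were fitted (-0.58, edgeR adjusted p = 0.0446, range over alternatives 0.0446 to 0.364), and higher against vehicle without vehicle replicate 2 (0.84, edgeR adjusted p = 0.0380, range 0.0380 to 0.615).

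Tlr3, the endosomal receptor for duplex RNA, stood at 13.3 and 5.77 CPM in TEV plus reserpine cells, 11.6 and 9.96 CPM in TEV cells and 7.99 and 9.82 CPM in vehicle cells. The TEV plus reserpine libraries spanned the other 4. No change of Tlr3 passed the test, with intervals of -0.58 to 1.13 for TEV against vehicle, -1.05 to 0.68 for TEV plus reserpine against TEV and -0.78 to 0.96 for TEV plus reserpine against vehicle. Exons of Tlr3 share 381 bases with the antisense gene Gm45542.

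**Figure D3:**
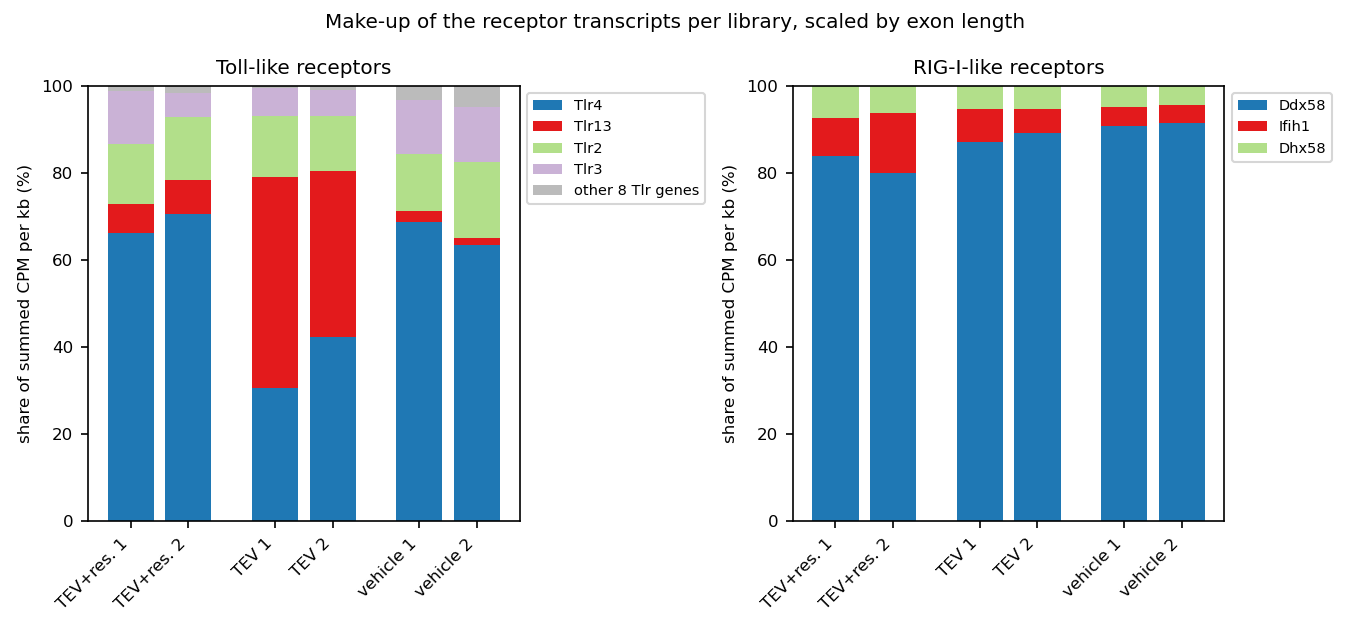
Share of each gene in the summed CPM per kilobase of exon of its family, for every library, with 12 Toll-like receptor genes on the left and 3 RIG-I-like receptor genes on the right. Tlr13 takes 48.3% and 38.1% of the Toll-like receptor sum in TEV libraries and at most 7.67% in any other library.

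Of the summed CPM per kilobase of 12 Toll-like receptor genes, Tlr13 made up 7.16% ± 0.714 in TEV plus reserpine cells, 43.2% ± 7.17 in TEV cells and 2.18% ± 0.688 in vehicle cells (SD, n = 2 each). Tlr4 made up 68.5% ± 3.17, 36.6% ± 8.25 and 66.0% ± 3.76 in the same order. Tlr2 held 14.2%, 13.2% and 15.2%, and Tlr3 held 8.85%, 6.25% and 12.5%. In TEV cells Tlr13 and Tlr4 thus took comparable shares, with Tlr13 first in TEV replicate 1 (48.3% against 30.7%) and Tlr4 first in TEV replicate 2 (42.4% against 38.1% for Tlr13). The remaining 8 Toll-like receptors were scarce, and 3 of them (Tlr5, Tlr6 and Tlr7) could be tested. Tlr7, the endosomal receptor for uridine-rich RNA, stood at 0.179 and 0.0287 CPM in TEV plus reserpine cells, against 0.627 and 1.57 CPM in vehicle cells, and fell by 3.51 (edgeR adjusted p = 0.01748). That call was lost without vehicle replicate 2 (edgeR adjusted p = 0.0870) and without TEV plus reserpine replicate 2 (0.0844), and the change became -2.71 and -2.58 in them and -5.09 without TEV plus reserpine replicate 1. Tlr12 was at 0 in every library, and Tlr1, Tlr8, Tlr9 and Tlr11 had at most 9.21 estimated counts in a library.

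Irf3, the factor that MAVS, TLR3 and TLR4 signalling activates, stood at 39.7 and 33.0 CPM in TEV plus reserpine cells, 36.7 and 39.4 CPM in TEV cells and 21.4 and 29.5 CPM in vehicle cells. All vesicle-treated libraries lay above vehicle. Irf3 rose in TEV cells (0.59, SE 0.171, edgeR adjusted p = 0.0270), whereas its change of 0.52 in TEV plus reserpine cells against vehicle had an interval of 0.10 to 0.93 and just missed the threshold (edgeR adjusted p = 0.05322). The TEV call was lost with library size alone (edgeR adjusted p = 0.0646) and without vehicle replicate 1 (0.128), TEV replicate 1 (0.0577) or TEV replicate 2 (0.0990), in a range of 0.00637 to 0.128. Against vehicle, Irf3 in TEV plus reserpine cells passed in 4 alternatives, with DESeq2, with limma-voom, with no filter and without vehicle replicate 2 (adjusted p between 0.0219 and 0.239 over all alternatives). Exons of Irf3 share 88 bases with Bcl2l12 on the other strand.

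Irf7, the interferon-inducible factor that amplifies the response, stood at 14 and 13.6 CPM in TEV plus reserpine cells, at 7.61 and 5.02 CPM in TEV cells and at 1.28 and 2.30 CPM in vehicle cells. The 3 groups did not overlap, and TEV plus reserpine was the highest. Irf7 was 7.84-fold higher in TEV plus reserpine cells than in vehicle cells (2.97, SE 0.333, edgeR adjusted p = 0.0008272) and rose by 1.83 in TEV cells against vehicle (SE 0.326, edgeR adjusted p = 0.003773). Both calls held in all 15 alternatives. With reserpine added it rose by 1.14 over TEV (SE 0.302, edgeR adjusted p = 0.03018). This last call was lost in 4 alternatives, among them those without TEV replicate 2 (edgeR adjusted p = 0.105), TEV plus reserpine replicate 1 (0.104) or TEV plus reserpine replicate 2 (0.0985), in a range over alternatives of 0.00394 to 0.105. Exons of Irf7 share 45 bases with Phrf1 on the other strand.

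Per kilobase of exon, the order of the 10 genes differed between groups, most of all in the place of Tlr13. In TEV plus reserpine cells the order was Ddx58 (24.4 CPM per kilobase), Tlr4 (14.1), Mavs (13.4), Irf3 (10.5), Irf7 (3.66), Ifih1 (3.36), Tlr2 (2.92), Dhx58 (2.03), Tlr3 (1.83) and Tlr13 (1.48). There the libraries of Ifih1 overlapped those of its neighbours Irf7 and Tlr2, and those of Tlr3 overlapped Dhx58 and Tlr13. In TEV cells it was Ddx58 (26.7), Tlr13 (14.4), Mavs (13.3), Tlr4 (12.0), Irf3 (11.1), Tlr2 (4.39), Tlr3 (2.07), Ifih1 (2.04), Irf7 (1.67) and Dhx58 (1.60), with Ddx58 and Tlr2 standing clear of their neighbours and overlap between neighbours among the rest. In vehicle cells it was Mavs (15.2), Ddx58 (12.3), Tlr4 (9.01), Irf3 (7.38), Tlr2 (2.11), Tlr3 (1.71), Dhx58 (0.612), Ifih1 (0.573), Irf7 (0.473) and Tlr13 (0.293), where Tlr2 overlapped Tlr3 and Irf7 overlapped Ifih1. Tlr13 was thus last in TEV plus reserpine and in vehicle cells and second in TEV cells.

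Each gene's pattern over the 6 libraries was set beside those of 12611 genes averaging 1 CPM or more, by Euclidean distance in log2 CPM centred on the gene's mean. Nearest to Tlr13 were Enpp2, which encodes autotaxin (distance 0.967), Popdc2 (1.12) and Wnt7a, a Wnt ligand (1.19). Enpp2 stood at 9.11 and 10.1 CPM in TEV plus reserpine cells, 66.8 and 56.5 CPM in TEV cells and 0.999 and 1.43 CPM in vehicle cells, a course like that of Tlr13. Wnt7a stood at 0.0697 and 0.0348 CPM in vehicle cells, below the CPM of 3 counts in each library, so its distance is uncertain. In TEV cells it stood at 5.64 and 2.0 CPM. Nearest to Ifih1 were the interferon-induced genes Oasl1 (0.159), Trim30d (0.670) and Phf11d (0.736), and nearest to Irf7 were Phf11d (0.575), Slfn4 (0.582) and H2-Q6 (0.664). Oasl1, Trim30d, Slfn4 and H2-Q6 belong to families with similar members that can share reads. The nearest genes were Rnpep, Gcsh and Pole3 for Ddx58, Rasl11b, Kifc5b and Wdr62 for Dhx58, and Cog7, Leprel2 and Tmem70 for Mavs. They were Fam160a1, Nfatc2ip and Gm5913 for Tlr2, Itga2b, Adam4 and Dpf1 for Tlr3, Ctla2a, Tfdp1 and Bora for Tlr4, and Ehd1, Snrpa and Cep72 for Irf3, at distances between 0.103 and 0.371. Among the 10 genes, Tlr4 and Irf3 were closest to each other (0.480), and Tlr13 was at least 4.53 from every other.

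Around the 10 genes, 96 further genes of the same pathways were followed in 10 lists, of which 88 were tested. With TEV, 27 rose and 12 fell against vehicle (30.7% and 13.6%, against 25.1% and 24.6% of all genes, or 44.3% against 49.7% in either direction), with a median of 0.21. With TEV plus reserpine, 30 rose and 8 fell against vehicle (34.1% and 9.09%, against 19.1% and 19.9% of all genes, or 43.2% against 39.1% in either direction; median 0.28). Between TEV plus reserpine and TEV, 17 rose and 6 fell (19.3% and 6.82%, against 15.7% and 16.0% of all genes, or 26.1% against 31.6% in either direction; median 0.20). These all-gene shares are the background for the counts of each list. Of these calls, 21 of 39, 23 of 38 and 5 of 23 held under all 15 alternatives, in the order just given.

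**Figure D4:**
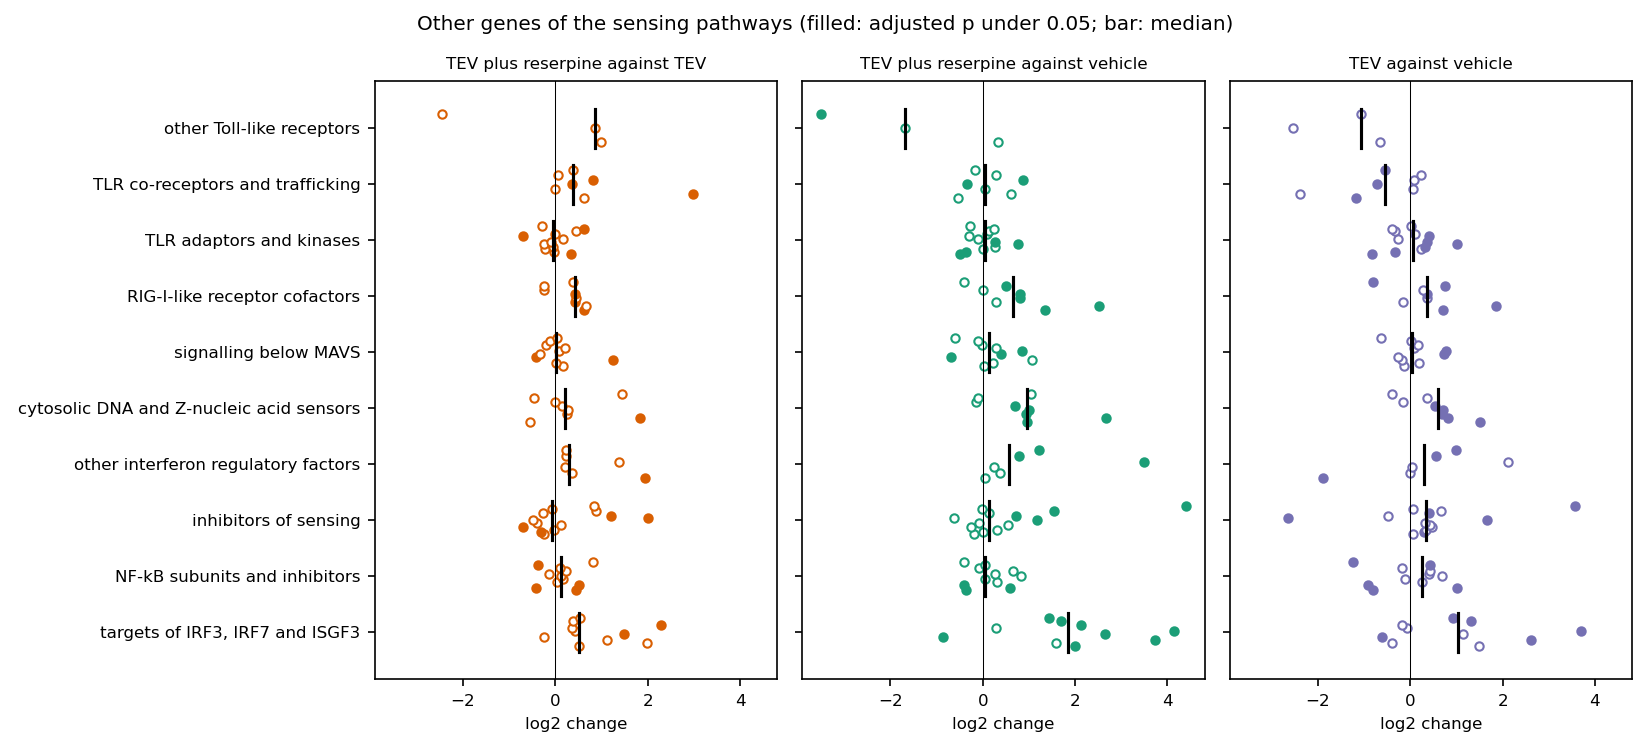
Log2 change of the tested genes of 10 pathway lists in the 3 comparisons, from edgeR, with filled points for adjusted p under 0.05 and a bar at the median of each list. The medians of the interferon target list are 0.52 for TEV plus reserpine against TEV, 1.85 for TEV plus reserpine against vehicle and 1.03 for TEV against vehicle.

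Around the Toll-like receptors, co-receptors and adaptors moved in both directions. Of 7 tested genes of ligand handling and receptor trafficking, 3 fell and 0 rose in TEV cells against vehicle: Cd14, a co-receptor of TLR4 (-1.16, edgeR adjusted p = 0.003149), Hsp90b1, the chaperone that folds Toll-like receptors (-0.72, 0.000288), and Unc93b1, which escorts endosomal receptors including TLR13 (-0.54, 0.02224). The Unc93b1 call was lost without replicate 1 or 2 of vehicle (edgeR adjusted p = 0.0503 and 0.111) or TEV replicate 1 (0.112). Between TEV plus reserpine and TEV, 3 of the 7 rose, namely Lbp, the lipopolysaccharide-binding protein (0.81), Hsp90b1 (0.37) and Cd180 (2.99), the last below 0.8 CPM in every library. Against vehicle, Lbp rose (0.88) and Hsp90b1 fell by 0.35 in TEV plus reserpine cells. Of these, the Cd180 call was lost in 6 alternatives, that of Lbp against TEV without TEV replicate 1 (edgeR adjusted p = 0.0557) or TEV plus reserpine replicate 1 (0.0529), and that of Hsp90b1 against vehicle without vehicle replicate 2 (0.0545).

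Myd88, the adaptor of all Toll-like receptors here except TLR3, stood at 42.2 and 41.3 CPM in TEV plus reserpine cells, 52.9 and 46.8 CPM in TEV cells and 24.4 and 24.9 CPM in vehicle cells. It rose in TEV cells (1.02, edgeR adjusted p = 0.0002983) and in TEV plus reserpine cells (0.76, edgeR adjusted p = 0.001547) against vehicle. Irak1, the kinase recruited by MyD88, fell in TEV cells (-0.83, edgeR adjusted p = 0.0003027) and in TEV plus reserpine cells (-0.50, edgeR adjusted p = 0.003798). Of the 12 tested adaptors and kinases, 4 rose and 2 fell in TEV cells, and 2 rose and 2 fell in TEV plus reserpine cells, against vehicle. Ticam1, the TRIF adaptor used by TLR3 and TLR4, lay between 23.1 and 27.1 CPM in every library and was not called.

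Of 8 RIG-I-like receptor cofactors, 4 rose and 1 (Zcchc3) fell in TEV cells against vehicle, and 5 rose and 0 fell in TEV plus reserpine cells. The Zcchc3 call was lost in thinned libraries (edgeR adjusted p = 0.124) and without replicate 1 or 2 of vehicle (edgeR adjusted p = 0.0677 and 0.125) or TEV replicate 1 (0.131). Eif2ak2, the RNA-activated kinase PKR, stood at 110 and 135 CPM in TEV plus reserpine cells, 83.3 and 76.2 CPM in TEV cells and 51.3 and 45.5 CPM in vehicle cells. It rose in all 3 comparisons, by 0.72 in TEV against vehicle, by 1.34 in TEV plus reserpine against vehicle and by 0.62 in TEV plus reserpine against TEV (edgeR adjusted p = 0.01184, lost at 0.0537 without TEV plus reserpine replicate 2). Trim25, the ubiquitin ligase of RIG-I, also rose in all 3 comparisons. Its change was 0.80 in TEV plus reserpine cells against vehicle (edgeR adjusted p = 0.001375) and 0.43 against TEV (0.01983). In TEV cells against vehicle it was 0.37 (edgeR adjusted p = 0.02022), a call lost in 3 alternatives. Of 10 genes that act below MAVS, Tbk1 (0.73) and Tbkbp1 (0.77) rose in TEV cells against vehicle and 0 fell. Ikbke, the gene of IKK-epsilon, stood at 74.2 and 69.8 CPM in TEV plus reserpine cells, 25.1 and 35.1 CPM in TEV cells and 21.1 and 48.1 CPM in vehicle cells, and rose by 1.25 against TEV (edgeR adjusted p = 0.03748). That call was lost without any of the libraries of those groups (edgeR adjusted p = 0.183, 0.0575, 0.126 and 0.107 without TEV replicate 1, TEV replicate 2, TEV plus reserpine replicate 1 and TEV plus reserpine replicate 2).

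Of 8 genes that sense or handle cytosolic DNA and Z-form nucleic acids, the STING adaptor and nucleases included, 5 rose and 0 fell in TEV cells and 5 rose and 0 fell in TEV plus reserpine cells, against vehicle, where 25.1% and 19.1% of all genes rose. They were Aim2, which assembles an inflammasome on DNA (1.5 in TEV cells, edgeR adjusted p = 0.001354), Mb21d1, the gene of cGAS (0.68), Samhd1 (0.54), Rnaseh2b (0.72) and Ifi204 (0.83). The cGAS gene lost its TEV call without vehicle replicate 2 (edgeR adjusted p = 0.0867) or TEV replicate 2 (0.0639), Rnaseh2b without vehicle replicate 1 (0.0586), and Ifi204 in 5 alternatives. Aim2 in TEV plus reserpine cells (0.96) lost its call without vehicle replicate 2 (edgeR adjusted p = 0.0607) or TEV plus reserpine replicate 2 (0.0645). Tmem173, the gene of the STING adaptor, lay between 21.3 and 26.6 CPM in every library and was not called (-0.15 in TEV cells against vehicle, edgeR adjusted p = 0.396). Ifi204, one of a family of similar genes whose reads can be shared, and so uncertain, was the only one of the 8 called between TEV plus reserpine and TEV (1.84, edgeR adjusted p = 0.002952). Aim2 changed there by -0.54 (edgeR adjusted p = 0.0868) and was called lower in 3 alternatives (lowest adjusted p 0.0267).

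Of the other interferon regulatory factors, Irf1 followed a course unlike that of Irf3 or Irf7. Irf1 stood at 16.1 and 20.3 CPM in TEV plus reserpine cells, 4.58 and 4.84 CPM in TEV cells and 12.9 and 22.5 CPM in vehicle cells. Only the TEV group lay apart, below the others. Irf1 fell by 1.90 in TEV cells against vehicle (edgeR adjusted p = 0.001636) and rose by 1.95 in TEV plus reserpine cells against TEV (edgeR adjusted p = 0.003970), and both calls held in all alternatives. Irf9, the DNA-binding part of the interferon-activated complex ISGF3, rose in TEV cells (0.99, edgeR adjusted p = 0.01103) and in TEV plus reserpine cells (1.22, edgeR adjusted p = 0.006932) against vehicle, and its TEV call was lost without vehicle replicate 2 (0.0545). Irf8 rose by 0.56 and 0.79 in the same comparisons.

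**Figure D5:**
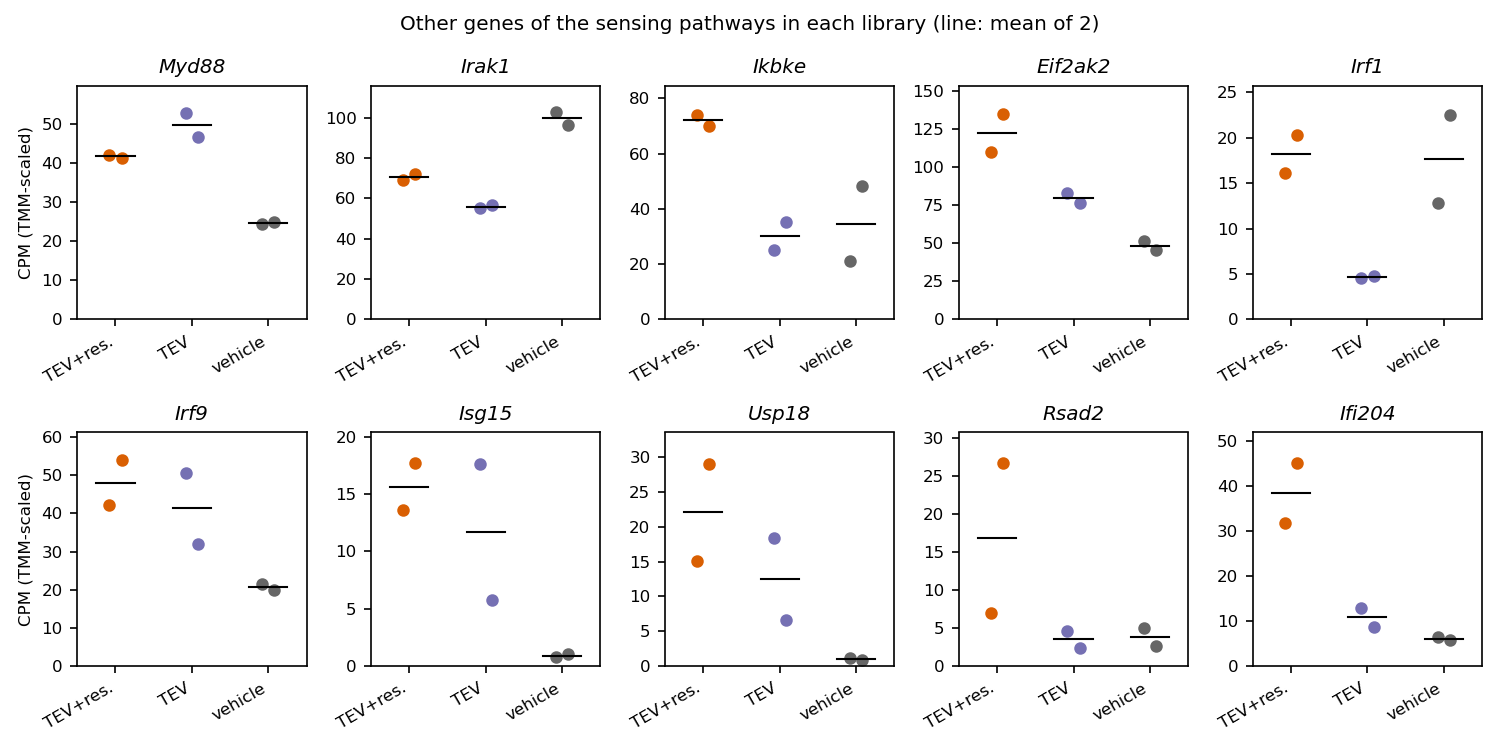
Expression in each library of 10 further pathway genes, picked for display after their values were seen, in CPM with TMM-scaled library sizes on axes that start at 0, with the mean of the 2 libraries of a group as a line. Irf1 is lowest in TEV cells (4.58 and 4.84 CPM), and Rsad2 reaches 26.7 CPM in a single TEV plus reserpine library.

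Of 13 inhibitors of sensing, 4 rose and 1 fell in TEV cells against vehicle, where 25.1% of all genes rose and 24.6% fell, and 4 rose and 0 fell in TEV plus reserpine cells against vehicle, where 19.1% rose and 19.9% fell. Usp18, an interferon-induced protease that removes ISG15 and restrains the interferon receptor, stood at 15.1 and 29.1 CPM in TEV plus reserpine cells, 18.4 and 6.67 CPM in TEV cells and 1.18 and 0.871 CPM in vehicle cells. It rose by 3.57 in TEV cells (edgeR adjusted p = 0.002900), or by 2.69 without TEV replicate 1, and by 4.41 in TEV plus reserpine cells (edgeR adjusted p = 0.001943). Rnf125, a ubiquitin ligase that marks RIG-I and MAVS for degradation, stood at 6.34 and 7.75 CPM in TEV plus reserpine cells, 1.61 and 1.86 CPM in TEV cells and 9.47 and 12.4 CPM in vehicle cells. Like Irf1 it was lowest in TEV cells, with a change of -2.64 in TEV against vehicle (edgeR adjusted p = 0.0001767) and 2.02 in TEV plus reserpine against TEV (edgeR adjusted p = 0.001733). Sigirr, an inhibitor of Toll-like receptor signalling, rose by 1.21 in TEV plus reserpine cells against TEV (edgeR adjusted p = 0.006861). In that comparison 2 of the 13 rose and 2 fell, where 15.7% of all genes rose and 16.0% fell, and their median was -0.07. Those that fell were Irak3 (-0.71, edgeR adjusted p = 0.03383) and Atg5 (-0.31, 0.04197).

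Of 11 NF-kB subunits and inhibitors, 2 rose and 3 fell in TEV cells against vehicle, where 25.1% of all genes rose and 24.6% fell. In TEV plus reserpine cells against vehicle 1 rose and 2 fell, where 19.1% of all genes rose and 19.9% fell. In TEV plus reserpine against TEV 2 rose and 2 fell, where 15.7% of all genes rose and 16.0% fell. The kinase subunits moved apart: Ikbkb rose by 1.02 in TEV cells (edgeR adjusted p = 0.0001929), whereas Chuk fell by 0.81 (0.001606) and Ikbkg fell by 0.92 (0.0007083). Between TEV plus reserpine and TEV all 3 went the other way, Ikbkb at -0.42, Chuk at 0.45 and Ikbkg at 0.51, and these calls were lost without TEV replicate 1 (edgeR adjusted p = 0.0633, 0.105 and 0.0774 for Ikbkb, Chuk and Ikbkg) or TEV plus reserpine replicate 2 (0.0671, 0.107 and 0.0608), among others. Relb fell by 1.24 in TEV cells against vehicle, or by 0.61 without vehicle replicate 2, where the call was lost (edgeR adjusted p = 0.0621), as it was without TEV replicate 1 (0.105).

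Ifnb1, the interferon gene that IRF3 and IRF7 switch on, had 0 and 1.98 estimated counts in TEV plus reserpine cells, 0 and 0.995 in TEV cells and 0 and 0 in vehicle cells, too few to test. Of the 10 tested targets of IRF3, IRF7 and ISGF3, 4 rose and 1 fell in TEV cells against vehicle, 7 rose and 1 fell in TEV plus reserpine cells against vehicle, and 2 rose and 0 fell in TEV plus reserpine against TEV. Isg15, the ubiquitin-like modifier, stood at 13.6 and 17.7 CPM in TEV plus reserpine cells, 17.7 and 5.74 CPM in TEV cells and 0.790 and 1.01 CPM in vehicle cells. Its change was 3.70 in TEV cells (edgeR adjusted p = 0.002091), or 2.71 without TEV replicate 1 and 4.31 without TEV replicate 2, and 4.14 in TEV plus reserpine cells (edgeR adjusted p = 0.002041). Ifit1 rose by 2.62 in TEV cells (edgeR adjusted p = 0.009007), a call lost without vehicle replicate 1 (0.0535) and with limma-voom (0.0572), with a change of 1.75 without TEV replicate 1. Ifit2 fell in both vesicle groups (-0.61 in TEV and -0.86 in TEV plus reserpine, against vehicle), calls lost without vehicle replicate 1 (edgeR adjusted p = 0.120 and 0.0545) and, in TEV, also without TEV replicate 1 (0.0718) or TEV replicate 2 (0.0946). Rsad2, the gene of viperin, stood at 6.92 and 26.7 CPM in TEV plus reserpine cells, 4.66 and 2.33 CPM in TEV cells and 5.04 and 2.65 CPM in vehicle cells. Its rise of 2.30 over TEV (edgeR adjusted p = 0.04058) was 1.00 without TEV plus reserpine replicate 2 and 2.96 without TEV plus reserpine replicate 1, and the call was lost in 4 alternatives, among them those without TEV replicate 1 (0.0865), TEV replicate 2 (0.151) or TEV plus reserpine replicate 2 (0.235).

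Libraries of a vesicle group differed from each other in the interferon-inducible genes. In TEV cells, replicate 1 lay above replicate 2 for Ddx58, Ifih1, Dhx58, Irf7, Irf9, Isg15 and Usp18. In TEV plus reserpine cells, replicate 2 lay above replicate 1 for Ifih1, Irf9, Isg15, Usp18 and Rsad2, while Dhx58 and Irf7 were nearly equal in both and Tlr3 was lower in replicate 2. Ifih1 averaged 27.4 ± 11.5 CPM in TEV plus reserpine cells and 16.7 ± 6.91 CPM in TEV cells (SD, n = 2 each), with ranges that overlapped. Vehicle libraries differed in some NF-kB and related genes, with replicate 2 above replicate 1. They stood at 22.016 and 71.345 CPM for Nfkb2 and at 35.7 and 86.2 CPM for Nfkbia. Tnfaip3 stood at 15.4 and 40.9 CPM there, and Relb at 17.7 and 37.4 CPM. Chuk, Ikbkb and Ikbkg differed little between the vehicle libraries. Over the alternatives, the Nfkb2 change in TEV cells against vehicle ranged from -0.73 to 0.965. The cause of this spread was not tested.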

How the data were processed

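The authors deposited 2 tables of estimated counts per gene symbol, with 61.1% of the raw values not whole. The filtered table holds 13098 genes whose estimated counts equal those of the raw table, with 0 values differing by more than 1e-06. Its values thus carry no normalization beyond that of the raw table, which was used. Some of the smallest values lay near whole numbers without reaching them. Tlr11 had 0.9904 in TEV plus reserpine replicate 2, 0.9948 in TEV replicate 2 and 1.011 in vehicle replicate 1. Whether both tables carry a scaling of each library was not tested. PolyA RNA was isolated with Trizol, per the labels' protocols, and TruSeq libraries were read as single ends on a NextSeq 500. Per the submitters' processing notes, kallisto 0.45.0, R 4.0.0, edgeR and limma were used. Those notes name the human build GRCh38 although the symbols are mouse symbols, so the only coordinates given are those of the RefSeq GRCm38.p6 promoter table.

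Groups follow the sample labels. The series text can be read as reserpine for all cells, and the labels say otherwise. Replicate numbers are those of the titles. Rounded counts were scaled by TMM (factors 0.941 to 1.04) after filterByExpr had kept 15035 genes. The 3 comparisons were drawn from a single edgeR quasi-likelihood fit to the 6 libraries, which left 3 residual degrees of freedom. Benjamini-Hochberg adjustment ran within a comparison, and 0.05 was the threshold of a call. The software was edgeR 4.0.16, with limma 3.58.1 and DESeq2 1.42.0 for alternatives, in R 4.3.3. The code was checked on simulated counts with the same dispersion for every gene, which does not measure error rates in these data. SEs are the log2 change over the root of the F statistic. Exon lengths and overlaps come from GENCODE M21, which matched 28229 symbols and all 10 genes. Replicates differed by more than counting noise in every group (mean chi-square per gene 20.5 for TEV plus reserpine, 43.2 for TEV and 19.5 for vehicle). Counting floors cover counting error only.

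The genes, the lists and the tests were chosen with earlier results of these data known. All 10 genes are named. Of each pathway list, called genes averaging 1 CPM or more and up to 2 uncalled ones could be named, and Tlr7, Cd180, Ifnb1 and the untested Toll-like receptors lie outside that rule and were named after their values were seen. Likeness names the 3 nearest genes. The result of 1 gene that this rule permits is not reported here. The 15 alternatives cover scaling, filtering, the tool, a replicate block, the groups fitted, thinned libraries and each library left out.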

Additional observations from a re-analysis of the deposited data

How the results depend on the processing

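With TEV against vehicle, 6 to 8 of the 10 genes were called higher under the 15 alternatives, and library size alone called 1 lower (Mavs). With TEV plus reserpine against TEV, the number called higher was 0 with the replicate block (Irf7, edgeR adjusted p = 0.0534) and 0 to 1 with a library left out, and 2 were called lower (Tlr13 and Tlr2) when only those groups were fitted. With a library left out, all genes called in that comparison numbered 1049 to 2177 higher and 1075 to 2138 lower, and in TEV plus reserpine against vehicle 1800 to 2977 higher and 1772 to 2980 lower. Uncalled changes that turned direction in TEV plus reserpine against TEV were those of Mavs (-0.0063 with no filter and -0.0014 with limma-voom) and Irf3 (0.0064 with library size alone). With a library left out, the changes there ranged from -0.28 to 0.0575 for Ddx58, -0.0629 to 0.0877 for Mavs, -0.89 to 0.31 for Tlr3 and -0.20 to 0.0598 for Irf3. In TEV plus reserpine against vehicle, Tlr3 was -0.0878 with limma-voom and ranged from -0.61 to 0.58 with a library left out. The cause of these turns was not tested. Scaling by library size alone put the all-gene median at -0.11 in TEV against vehicle, 0.08 in TEV plus reserpine against TEV and -0.07 in TEV plus reserpine against vehicle, and the higher share of the calls at 39.8% (50.5% with TMM) and 59.4% (49.5% with TMM) in TEV against vehicle and TEV plus reserpine against TEV. Replicates with the same title number did not deviate together. The correlations were -0.04 between TEV plus reserpine and TEV, 0.02 between TEV plus reserpine and vehicle, and 0.02 between TEV and vehicle. They show no shift shared by libraries of the same title number, but cannot show whether libraries share an origin. The replicate block also follows the title numbers, and pairing vehicle with the vesicle groups by the numbers of the descriptions was not tested. The replicate block changed the call of none of the 10 genes but Irf7. Rsad2 lost its call against TEV under that block (edgeR adjusted p = 0.0764). Depth limits Dhx58, Irf7 and Tlr13 most, which had 31.3 to 87.3 estimated counts in the vehicle libraries.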
